A study of Homo sapiens with 6 samples.

Results

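The genes described here are 43 core regulators of the cell division cycle: 9 cyclins, 4 cyclin-dependent kinases (CDKs), 7 CDK inhibitors of the INK4 and CIP/KIP families, the CDK-associated phosphatase CDKN3, 3 CDC25 phosphatases, the inhibitory kinases WEE1 and PKMYT1, 3 pocket proteins, 8 E2F factors with their 2 DP partners, and 4 genes of the MuvB, B-MYB and FOXM1 group. They were chosen by symbol for their known function, with no measured value in the rule but with earlier results of these data known. All 43 were among the 16376 genes of the table, and 41 of them averaged 1 FPKM or more and were tested. RNA was sequenced from HOS, a human osteosarcoma line whose genotype is labelled as wild type throughout. In 3 libraries the cells had received Agrimol B, a phloroglucinol derivative of agrimony plants, for 24 h according to the series' design text. In the other 3, the control libraries, no treatment is listed, and the labels do not say whether these cells received the solvent or how long they were cultured. No dose is stated in the sources used here. Only this line was studied, and nothing in the labels says that libraries of a group came from separate cultures, so p-values reflect only library-to-library spread, which may be technical.

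Values are FPKM, fragment counts scaled to transcript length and to library depth, so levels can be compared between genes per length. They total 352990 to 359537 per library, the relative depths estimated from the smallest values ran from 0.990 to 1.19, and the absolute depth is unknown. All 10 mesenchymal and bone tumour markers examined were detected in every library, VIM at 532 to 712 FPKM and COL1A1 at 286 to 436 FPKM. Of 12 markers of other cell types, 10 were in the table and 4 passed the filter. The 6 under the filter reached at most 0.0578 FPKM (PTPRC, leukocytes), 0.0391 and 0.410 FPKM (PECAM1 and CDH5, endothelium), 0.304 and 0.297 FPKM (DES and MYOD1, muscle) and 0.439 FPKM (CDH1, epithelium). The macrophage and lysosome gene CD68 stood at 7.49, 9.25 and 10.3 FPKM with Agrimol B and at 4.04, 4.59 and 4.02 FPKM in control, a 2.13-fold rise (limma adjusted p = 0.00109). The epithelial gene KRT18 fell to 143 to 195 FPKM with Agrimol B, against 207 to 211 FPKM in control (limma adjusted p = 0.0356), and EPCAM stood at 12.8 to 14.7 FPKM in all libraries. The part of such cells in the results was not tested. The third Agrimol B library stood apart in keratins of stratified epithelium. KRT5 reached 10.4 FPKM there, while the first and the second Agrimol B library had 0.206 and 0.699 FPKM and the control libraries 0 to 0.735 FPKM. KRT14, KRT6A and S100A9, named after their values were seen, had their highest values in that same library (5.87, 5.49 and 5.35 FPKM). In GENCODE release 29, exons of CCNA2, CCND1, CCNE2, CDC25C, CDK2, CDK4, E2F5, FOXM1, PKMYT1 and RBL2 overlap a gene of the table on the opposite strand, and the sources used here do not say whether counting used the strand.

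A cell advances through division when cyclins bind and activate CDKs. In G1, D-type cyclins with CDK4 or CDK6 and then E-type cyclins with CDK2 phosphorylate the retinoblastoma protein and its relatives, which frees E2F factors to switch on genes of DNA replication. Later, cyclin A with CDK2 or CDK1 and cyclin B with CDK1 drive S phase and mitosis, and their genes are switched on by B-MYB, FOXM1 and the MuvB complex. INK4 and CIP/KIP proteins restrain the kinases, and this network is often disturbed in osteosarcoma.

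With Agrimol B most of these genes fell. Of the 41 tested, 25 fell and 5 rose (limma, adjusted p 0.05), or 61.0% and 12.2%, against 21.4% and 30.6% of all 12143 genes tested and 52.0% called in either direction. Among all genes 3713 rose and 2598 fell, but 3084 rose and 3150 fell with median-ratio scaling and 3101 rose and 3083 fell with quantile normalization. With those scalings 4 and 3 of the 41 rose and 27 and 28 fell. The median log2 difference was -0.31 over the 41 genes and 0.07 over all genes tested. A ratio of group means of at least 1.5 was reached by 13 of the 25 falls and 2 of the 5 rises, 31.7% and 4.88% of the 41, against 9.09% and 12.9% of all genes. The values of the groups did not overlap in 32 of the 41, or 78.0%, against 62.2% of all genes. Without the third Agrimol B library 21 fell and 4 rose. In RNA from whole cultures, fewer cells in a phase of the cycle and less RNA per cell cannot be told apart.

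**Figure D1:**
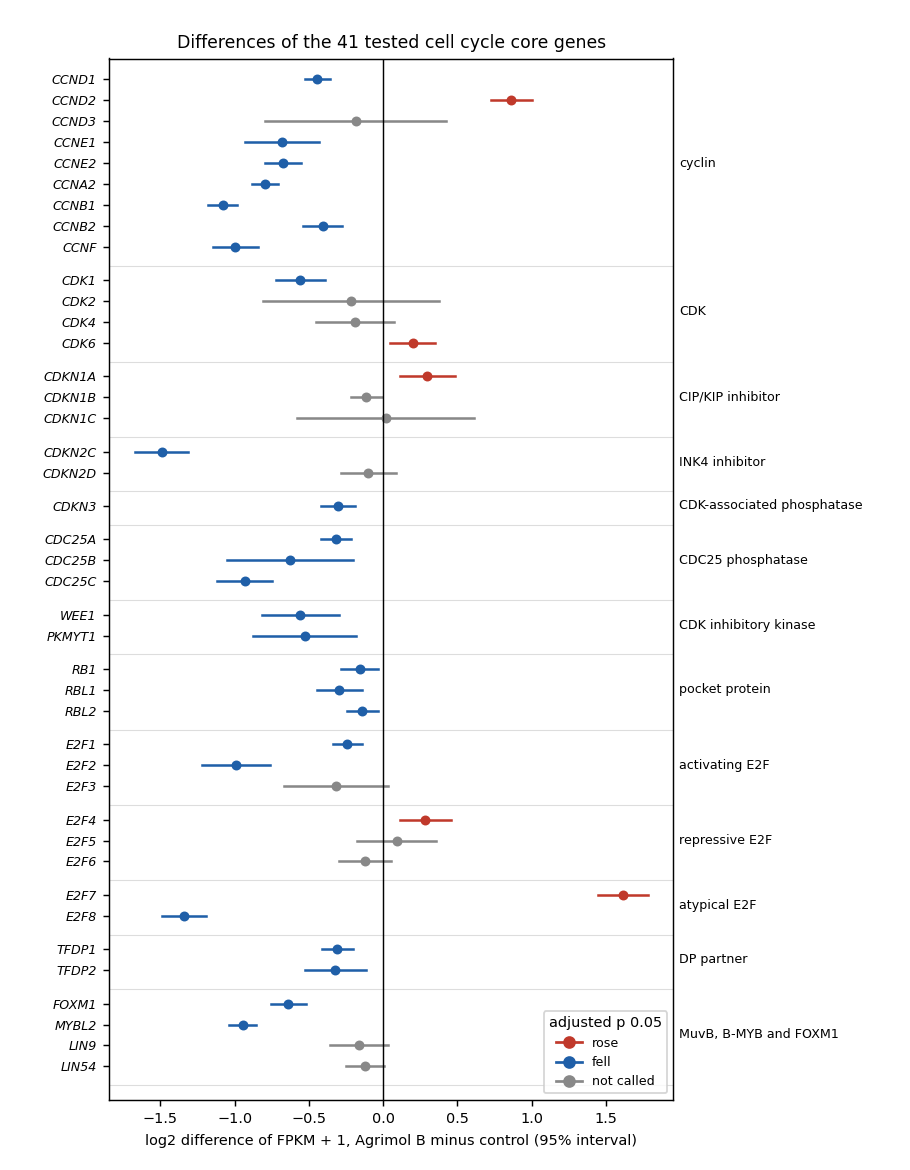
Log2 difference of FPKM + 1 (x axis, Agrimol B minus control) of the 41 tested genes by role, with 95% intervals from limma; red marks genes that rose, blue genes that fell and grey genes not called. E2F7 at 1.61 and CCND2 at 0.86 stand on the right, and CDKN2C at -1.49 and E2F8 at -1.34 on the left.

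**Figure D2:**
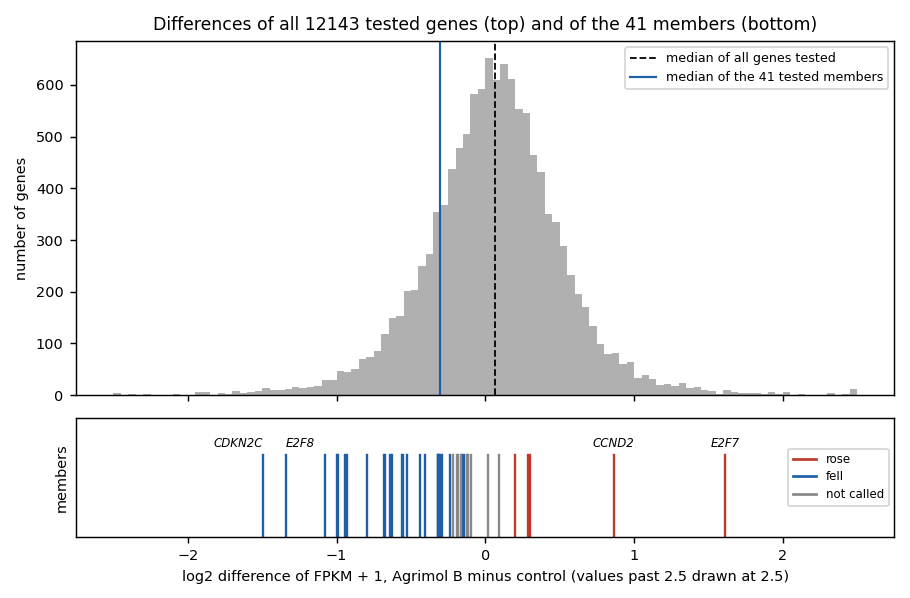
Top, number of genes (y axis) by log2 difference of FPKM + 1, Agrimol B minus control, for all 12143 genes tested; bottom, the 41 tested cell cycle genes as lines coloured by call. The median of the 41 lies at -0.31 and that of all genes at 0.07.

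The D-type cyclins, the growth-factor-responsive partners of CDK4 and CDK6, did not move together. CCND1 stood at 68.9, 71.0 and 68.7 FPKM in the Agrimol B libraries, against 95.4, 95.4 and 93.6 FPKM in the control libraries. It fell 1.36-fold (log2 difference -0.44, SE 0.03, limma adjusted p = 0.000187). CCND2 stood at 32.5, 30.2 and 29.6 FPKM with Agrimol B, against 17.1, 16.7 and 15.6 FPKM in control. It rose 1.87-fold (log2 difference 0.86, SE 0.06, limma adjusted p = 0.000112), and the groups overlapped in neither of these genes. CCND3 had 11.0, 13.4 and 18.8 FPKM with Agrimol B and 12.3, 21.3 and 15.9 FPKM in control, with overlapping groups (log2 difference -0.18, 95% interval -0.79 to 0.43, limma adjusted p = 0.570). CCND1 supplied 60.6 ± 1.75% of the summed FPKM of the D cyclins with Agrimol B and 74.3 ± 2.55% in control (SD, n = 3 libraries per group, as in all mean values here). CCND2 supplied 26.9 ± 1.87% with Agrimol B and 12.9 ± 0.679% in control. With 3 libraries per group an exact permutation test cannot go below 0.1, so shares and ratios are given without a test. The sum of the D cyclins was 115 ± 2.43 FPKM with Agrimol B and 128 ± 4.96 FPKM in control.

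The E-type cyclins, which activate CDK2 at the start of S phase, both fell. CCNE1 stood at 7.79, 6.38 and 6.19 FPKM with Agrimol B and at 10.4, 11.5 and 12.5 FPKM in control, 1.69-fold lower (log2 difference -0.68, SE 0.10, limma adjusted p = 0.00240). CCNE2 stood at 4.26, 4.18 and 4.22 FPKM with Agrimol B and at 7.10, 7.35 and 7.55 FPKM in control, 1.74-fold lower (log2 difference -0.67, SE 0.05, limma adjusted p = 0.000158). In both genes every Agrimol B library lay below every control library. CCNE1 made up 61.5 ± 2.75% of their sum with Agrimol B and 60.9 ± 1.47% in control.

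The cyclins of S phase and mitosis all fell, by unequal amounts. CCNB1, the main mitotic partner of CDK1, stood at 45.9, 46.7 and 44.9 FPKM with Agrimol B, against 94.5, 100.4 and 98.7 FPKM in control. This 2.14-fold fall (log2 difference -1.08, SE 0.04, limma adjusted p = 2.09e-05) was the largest among the 9 cyclins. CCNB2, the other B-type cyclin, stood at 42.4, 44.3 and 46.9 FPKM with Agrimol B and at 57.0, 61.7 and 59.3 FPKM in control, 1.33-fold lower (log2 difference -0.41, SE 0.05, limma adjusted p = 0.00142). The ratio of CCNB1 to CCNB2 was 1.03 ± 0.0661 with Agrimol B and 1.65 ± 0.0205 in control, and the groups did not overlap. CCNA2, which pairs with CDK2 and then CDK1, stood at 44.3, 42.96 and 42.9 FPKM with Agrimol B and at 75.4, 77.0 and 75.6 FPKM in control, 1.75-fold lower (limma adjusted p = 3.52e-05). CCNF, the cyclin-like subunit of an SCF ubiquitin ligase that binds no CDK, stood at 7.40, 8.52 and 8.39 FPKM with Agrimol B and at 17.3, 17.3 and 16.8 FPKM in control. It fell 2.11-fold (log2 difference -0.996, SE 0.06, limma adjusted p = 9.64e-05).

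Many genes of this late group carry CCAAT boxes and a cell cycle homology region (CHR), bound by NF-Y and by MuvB, before their start. The 250 bases upstream of the RefSeq start (GRCh38.p14) of the cyclins with the 2 largest falls, CCNB1 (chr5:69166900-69167149, plus strand) and CCNF (chr16:2429197-2429446, plus strand), and of the less affected CCNB2 (chr15:59104896-59105145, plus strand) are shown 5′ to 3′, with CCAAT and the CHR letters TTTGAA or TTCGAA in capitals.
CCNB1: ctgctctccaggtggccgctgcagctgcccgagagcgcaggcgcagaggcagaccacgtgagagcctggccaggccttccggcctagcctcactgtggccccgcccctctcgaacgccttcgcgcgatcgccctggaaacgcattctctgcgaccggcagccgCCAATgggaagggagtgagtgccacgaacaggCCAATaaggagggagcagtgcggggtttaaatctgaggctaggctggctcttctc
CCNF: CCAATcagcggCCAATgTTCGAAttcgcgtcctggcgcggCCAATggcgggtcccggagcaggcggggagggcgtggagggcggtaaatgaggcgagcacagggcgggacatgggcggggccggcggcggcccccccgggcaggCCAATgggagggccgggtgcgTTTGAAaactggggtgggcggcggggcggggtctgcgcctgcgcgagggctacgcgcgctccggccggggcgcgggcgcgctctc
CCNB2: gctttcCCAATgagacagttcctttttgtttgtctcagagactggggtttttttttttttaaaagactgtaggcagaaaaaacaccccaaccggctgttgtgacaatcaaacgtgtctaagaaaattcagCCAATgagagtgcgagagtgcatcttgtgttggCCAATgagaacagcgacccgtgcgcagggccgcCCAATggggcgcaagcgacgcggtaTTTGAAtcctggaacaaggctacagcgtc
CCNB1 held 2 CCAAT boxes, 87 and 55 bases before the start, and no CHR letters in this window. CCNF held 4 CCAAT boxes and 2 CHR matches, 233 and 85 bases before the start. CCNB2 held 4 CCAAT boxes and 1 CHR match, 29 bases before the start. The number of matches to the letters searched did not follow the size of the fall in these 3 genes. Other forms of the CHR were not searched, so the count cannot show that CCNB1 lacks one.

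Promoters of 33 of the 43 genes were matched in the RefSeq table (not CCND1, CCND2, CCNE2, CDK2, CDKN1C, E2F5, E2F8, FOXM1, PKMYT1 or WEE1), and motifs were searched on both strands over 250 bases before to 50 after the start. CHR letters were in 7 of the 33 (21.2%), against 16.4% of 34796 promoters of that length, and CCAAT in 13 (39.4%), against 34.6%. The sets are unlike: the 33 hold 1 promoter per gene, and the 34796 are distinct sequences, not reduced to 1 per gene or to tested genes. The E2F letters TTTGGCGC, TTTCCCGC, TTTGCCGC or TTTCGCGC were in 7 of the 33 (21.2%), against 3.30% of all promoters. No matches within these promoters shared bases with each other. Among the 9 matched genes that fell at least 1.5-fold, 1 held E2F letters, 1 held CHR letters and 3 held CCAAT. For each gene only the first promoter listed was searched. Other starts of the same gene and other forms of the letters were not, so these counts cannot show that a gene lacks such a site.

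Of the 4 CDKs, CDK1, the mitotic kinase, fell 1.48-fold. It stood at 38.7, 33.7 and 36.8 FPKM with Agrimol B and at 51.6, 53.1 and 57.3 FPKM in control (log2 difference -0.56, SE 0.07, limma adjusted p = 0.00101). CDK2, the kinase of S phase, stood at 14.2, 26.6 and 13.6 FPKM with Agrimol B and at 20.4, 19.8 and 20.8 FPKM in control. The second Agrimol B library lay above, and the others below, all control values (log2 difference -0.22, limma adjusted p = 0.486). Without that library CDK2 fell by 0.51 on the log2 scale (limma adjusted p = 0.00193; 0.00193 to 0.872 over the alternatives). CDK4, the most abundant of the 4, stood at 107, 133 and 123 FPKM with Agrimol B and at 128, 131 and 156 FPKM in control, with overlapping groups (log2 difference -0.19, 95% interval -0.45 to 0.08, limma adjusted p = 0.190). CDK6, the other partner of D cyclins, stood at 19.7, 20.1 and 17.4 FPKM with Agrimol B and at 16.4, 16.6 and 16.4 FPKM in control. Its rise of 1.16-fold (log2 difference 0.20, limma adjusted p = 0.0374) was lost with median-ratio scaling and quantile normalization and without any library except the third Agrimol B library (limma adjusted p 0.00915 to 0.165 over the alternatives).

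Among the inhibitors of the kinases, CDKN2C, which encodes p18 of the INK4 family and blocks CDK4 and CDK6, had the largest fall of the 41 genes. The gene lies on GRCh38 at chromosome 1, 50960745 to 50974633 (GENCODE 29). It stood at 5.97, 6.26 and 6.91 FPKM with Agrimol B, against 20.8, 18.3 and 20.3 FPKM in control. Every Agrimol B value was far below every control value, a fall of 3.10-fold (log2 difference -1.49, SE 0.07, limma adjusted p = 4.82e-05), which ranked 56 among the falls of all 12143 genes. CDKN2D, encoding p19 of the same family, stood at 3.44, 4.17 and 4.11 FPKM with Agrimol B and at 4.31, 4.15 and 4.27 FPKM in control (log2 difference -0.10, 95% interval -0.28 to 0.08, limma adjusted p = 0.309). The ratio of CDKN2C to CDKN2D was 1.64 ± 0.122 with Agrimol B and 4.65 ± 0.222 in control. CDKN2A, which encodes p16 and ARF, was listed at 0, 0 and 0.328 FPKM with Agrimol B and at 0, 0.0330 and 0 FPKM in control. CDKN2B, which encodes p15, was listed at 0, 0 and 0.0337 FPKM with Agrimol B and at 0 in every control library. Both neighbours on chromosome 9 were below the filter and were not tested. Their highest values were in the third Agrimol B library, the library with the most KRT5, and the part of those other transcripts in these values was not tested.

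CDKN1A, which encodes p21, the CIP/KIP inhibitor induced by p53 and by stress, stood at 7.48, 7.50 and 8.85 FPKM with Agrimol B and at 6.04, 6.23 and 6.52 FPKM in control. The groups did not overlap, and the rise was 1.27-fold (log2 difference 0.30, SE 0.08, limma adjusted p = 0.0184). It was lost with quantile normalization (0.0546) and without the first or the second control library (0.0571 and 0.0520; 0.0173 to 0.0571 over the alternatives). CDKN1B, which encodes p27, stood at 15.1, 14.5 and 14.9 FPKM with Agrimol B and at 15.8, 16.2 and 16.4 FPKM in control. Its log2 difference of -0.11 did not pass (limma adjusted p = 0.0646), and it passed with median-ratio scaling (-0.18, 0.0153) and quantile normalization (-0.20, 0.00962). CDKN1C, which encodes p57, varied more between libraries than between groups, at 0.974, 1.87 and 1.93 FPKM with Agrimol B and 0.883, 1.60 and 2.27 FPKM in control (limma adjusted p = 0.958). The summed FPKM of these 3 inhibitors was 24.4 ± 1.16 with Agrimol B and 24.0 ± 1.24 in control. CDKN3, a phosphatase that acts on CDK1 and CDK2, fell 1.24-fold to 35.0 ± 1.61 FPKM with Agrimol B, against 43.4 ± 1.07 FPKM in control (limma adjusted p = 0.00287).

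**Figure D3:**
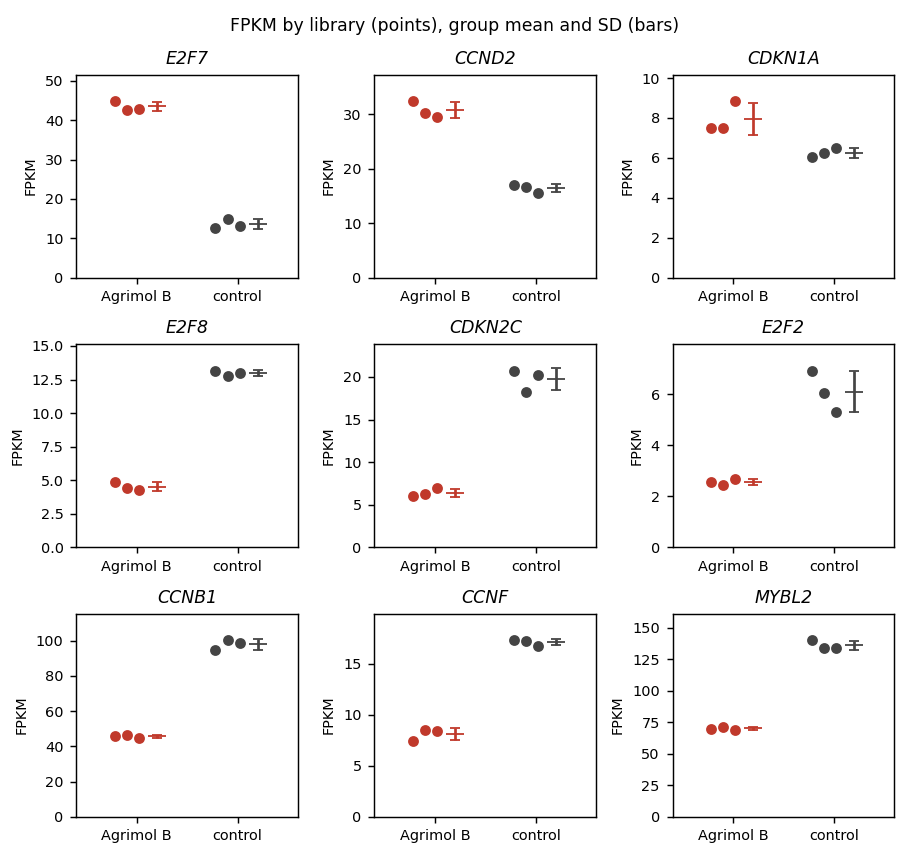
FPKM (y axis, from 0) of 9 genes in each Agrimol B library (red, left) and each control library (grey, right), with the group mean and SD beside the points. E2F7, CCND2 and CDKN1A are higher in every Agrimol B library, and the other 6 are lower, E2F8 at 4.23 to 4.90 FPKM against 12.8 to 13.2 FPKM.

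The CDC25 phosphatases, which remove inhibitory phosphates from CDKs, and the kinases that add them all fell. CDC25C, active at mitotic entry, stood at 6.35, 6.09 and 6.30 FPKM with Agrimol B and at 11.6, 12.8 and 14.2 FPKM in control, 2.06-fold lower (log2 difference -0.93, SE 0.08, limma adjusted p = 0.000234). CDC25B stood at 48.5, 35.4 and 51.2 FPKM with Agrimol B and at 78.1, 57.4 and 74.1 FPKM in control, with the second library low in both groups. Its fall of 1.55-fold (limma adjusted p = 0.0247) was lost without the first or the third control library (0.0744 and 0.0730; 0.00332 to 0.0744 over the alternatives). CDC25A, which acts on CDK2 around S phase entry, fell 1.26-fold to 16.7 ± 0.169 FPKM with Agrimol B, against 21.1 ± 0.566 FPKM in control (limma adjusted p = 0.00139). WEE1, which phosphorylates CDK1 on tyrosine, stood at 9.92, 8.19 and 8.03 FPKM with Agrimol B and at 14.0, 14.2 and 11.7 FPKM in control, 1.52-fold lower (limma adjusted p = 0.00611). PKMYT1, its membrane-bound relative, stood at 21.3, 16.7 and 15.1 FPKM with Agrimol B and at 29.2, 23.1 and 25.1 FPKM in control, 1.46-fold lower (limma adjusted p = 0.0225). That call was lost without the second or the third Agrimol B library or the first or the third control library (0.00816 to 0.0671 over the alternatives).

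The pocket proteins, which bind E2F factors and repress their targets, fell slightly. RB1, the retinoblastoma gene, stood at 15.1, 14.9 and 13.8 FPKM with Agrimol B and at 16.6, 16.1 and 16.4 FPKM in control, 1.12-fold lower (log2 difference -0.16, SE 0.05, limma adjusted p = 0.0411). RBL1, encoding p107, fell 1.26-fold to 7.31 ± 0.356 FPKM with Agrimol B, against 9.19 ± 0.525 FPKM in control (limma adjusted p = 0.00905), and RBL2, encoding p130, fell 1.11-fold to 12.3 ± 0.121 FPKM with Agrimol B, against 13.7 ± 0.309 FPKM in control (limma adjusted p = 0.0340). The call of RBL2 was lost without any 1 of the 6 libraries and that of RB1 without any except the first Agrimol B library (0.00849 to 0.105 for RB1 and 0.00739 to 0.0985 for RBL2 over the alternatives).

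The atypical E2Fs E2F7 and E2F8, which repress E2F targets without a DP partner, moved in opposite directions. E2F7 (chromosome 12, 77021247 to 77065580, GENCODE 29 on GRCh38) stood at 44.9, 42.7 and 42.9 FPKM with Agrimol B, against 12.7, 14.98 and 13.0 FPKM in control. This 3.21-fold rise (log2 difference 1.61, SE 0.07, limma adjusted p = 3.33e-05) was the largest among the 41 genes and ranked 60 among the rises of all 12143 genes. E2F8 (chromosome 11, 19224063 to 19241620) stood at 4.90, 4.43 and 4.23 FPKM with Agrimol B, against 13.2, 12.8 and 13.0 FPKM in control. It fell 2.87-fold (log2 difference -1.34, SE 0.06, limma adjusted p = 3.73e-05) and ranked 87 among the falls. In control libraries the pair stood at nearly equal levels. The ratio of E2F7 to E2F8 was 9.16, 9.64 and 10.1 in the Agrimol B libraries and 0.964, 1.17 and 1.00 in the control libraries. The sum of the pair was 48.0 ± 1.53 FPKM with Agrimol B and 26.5 ± 1.05 FPKM in control.

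The activating E2Fs, which drive S phase genes, fell or did not pass. E2F2 stood at 2.55, 2.45 and 2.68 FPKM with Agrimol B and at 6.94, 6.06 and 5.32 FPKM in control, 2.38-fold lower (log2 difference -0.99, SE 0.09, limma adjusted p = 0.000376). E2F1, the most abundant of the 3, stood at 24.5, 24.2 and 23.3 FPKM with Agrimol B and at 28.5, 29.02 and 28.0 FPKM in control, 1.19-fold lower (log2 difference -0.24, SE 0.04, limma adjusted p = 0.00387). E2F3 stood at 6.58, 4.81 and 4.25 FPKM with Agrimol B and at 6.28, 6.42 and 7.26 FPKM in control, with the first Agrimol B library among the control values (log2 difference -0.32, limma adjusted p = 0.112). Without that library it fell by 0.47 (limma adjusted p = 0.0111; 0.0111 to 0.271 over the alternatives).

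E2F1 and E2F2, which differ in the size of their fall, carry E2F letters close to their start, and E2F7 and E2F1 carry CCAAT boxes. The 250 bases before the RefSeq start (GRCh38.p14) of E2F7 (chr12:77065570-77065819, minus strand) are shown with CCAAT or its complement in capitals, and those of E2F2 (chr1:23531234-23531483, minus strand) and E2F1 (chr20:33686386-33686635, minus strand) with E2F letters in capitals.
E2F7: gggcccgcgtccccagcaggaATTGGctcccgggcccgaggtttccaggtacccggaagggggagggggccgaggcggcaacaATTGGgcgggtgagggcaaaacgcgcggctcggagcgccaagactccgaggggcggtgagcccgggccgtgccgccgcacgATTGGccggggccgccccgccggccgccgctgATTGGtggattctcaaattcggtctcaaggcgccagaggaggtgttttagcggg
E2F2: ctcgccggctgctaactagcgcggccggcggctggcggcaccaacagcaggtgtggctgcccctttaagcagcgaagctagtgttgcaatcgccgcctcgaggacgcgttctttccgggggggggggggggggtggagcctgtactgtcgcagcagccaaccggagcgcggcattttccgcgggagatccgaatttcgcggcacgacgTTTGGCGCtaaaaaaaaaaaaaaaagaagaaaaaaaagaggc
E2F1: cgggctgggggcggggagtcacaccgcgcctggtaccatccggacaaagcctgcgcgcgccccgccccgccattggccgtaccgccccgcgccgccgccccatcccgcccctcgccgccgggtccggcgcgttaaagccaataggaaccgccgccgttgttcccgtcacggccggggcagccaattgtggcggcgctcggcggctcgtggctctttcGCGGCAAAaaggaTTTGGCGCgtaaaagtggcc
E2F7 held 4 CCAAT boxes, all on the opposite strand, from 229 to 54 bases before the start, and none of the E2F letters searched. E2F2 held 1 E2F match, 42 bases before the start, and E2F1 held 2, at 33 and 20 bases. E2F1 also held 3 CCAAT boxes, 179, 113 and 70 bases before the start, which are not in capitals, and E2F2 held none in the window searched.

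Of the E2Fs that act mostly as repressors, E2F4, the main partner of p107 and p130, stood at 48.3, 42.3 and 48.2 FPKM with Agrimol B and at 37.7, 35.7 and 39.9 FPKM in control. It rose 1.22-fold (log2 difference 0.28, SE 0.07, limma adjusted p = 0.0163), a call lost without the first or the third Agrimol B library or the second control library (0.0512, 0.0525 and 0.0511; 0.00912 to 0.0525 over the alternatives). E2F5, another partner of pocket proteins, had 7.24 ± 1.13 FPKM with Agrimol B and 6.69 ± 0.371 FPKM in control, and E2F6, which represses without pocket proteins, had 4.42 ± 0.237 FPKM with Agrimol B and 4.90 ± 0.406 FPKM in control, with overlapping groups (limma adjusted p = 0.518 and 0.207). The DP partners, which E2F1 to E2F6 need for binding DNA, both fell. TFDP1 fell 1.24-fold to 82.4 ± 2.02 FPKM with Agrimol B, against 102 ± 3.93 FPKM in control (limma adjusted p = 0.00181), and TFDP2 fell 1.27-fold to 8.30 ± 1.02 FPKM with Agrimol B, against 10.6 ± 0.163 FPKM in control (limma adjusted p = 0.0204). The call of TFDP2 was lost without the second or the third Agrimol B library or the first or the third control library (0.00453 to 0.0619 over the alternatives).

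**Figure D4:**
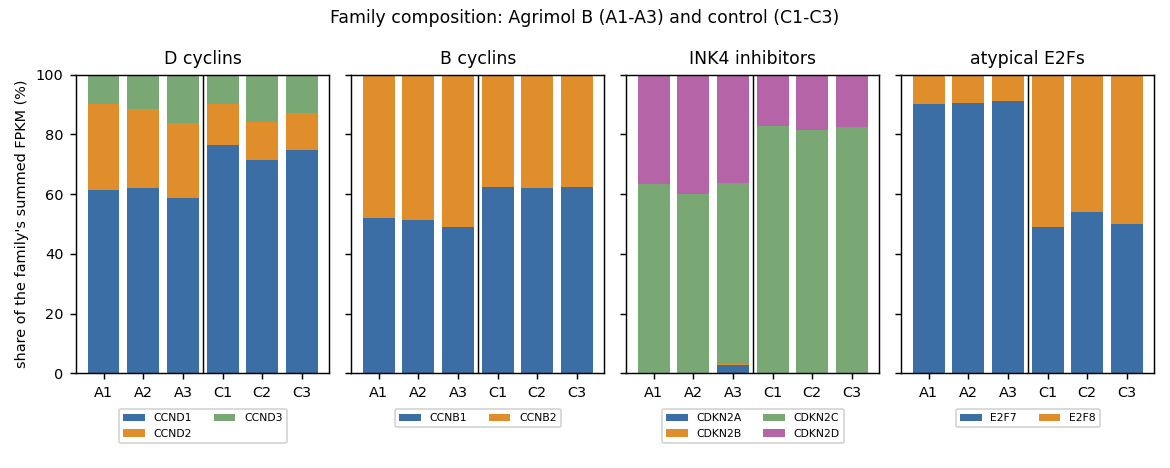
Share of each family's summed FPKM (y axis, percent, from 0) by gene in the Agrimol B libraries (A1 to A3) and control libraries (C1 to C3). E2F7 made up 90.2% to 91.0% of the atypical E2Fs in the Agrimol B libraries, against 49.1% to 54.0% in the control libraries.

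Of the factors that switch on late cell cycle genes, MYBL2 and FOXM1 fell. MYBL2, encoding B-MYB, stood at 70.0, 71.5 and 68.8 FPKM with Agrimol B, against 140.3, 134 and 134 FPKM in control, 1.94-fold lower (log2 difference -0.95, SE 0.04, limma adjusted p = 2.63e-05). FOXM1 stood at 17.2, 18.1 and 18.8 FPKM with Agrimol B, against 27.9, 28.8 and 29.1 FPKM in control, 1.59-fold lower (log2 difference -0.64, SE 0.05, limma adjusted p = 0.000179). In both, all Agrimol B values lay below all control values. The MuvB subunits LIN9 and LIN54, the second of which binds CHR letters, had 5.68 ± 0.435 and 8.85 ± 0.438 FPKM with Agrimol B and 6.47 ± 0.534 and 9.70 ± 0.0858 FPKM in control. Neither passed (limma adjusted p = 0.135 and 0.0978), and both passed with quantile normalization (0.0430 and 0.0197).

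Grouped by the phase in which their transcripts are known to peak, all 7 genes assigned to G1/S (CCNE1, CCNE2, CDC25A, E2F1, E2F2, E2F8 and MYBL2) fell, with a median log2 difference of -0.68. All 9 assigned to G2/M (CCNA2, CCNB1, CCNB2, CCNF, CDK1, CDC25B, CDC25C, CDKN3 and FOXM1) fell, with a median of -0.64. Of all genes tested, 21.4% fell and 30.6% rose. In neither phase list did a gene rise, also at an unadjusted p of 0.05. The other core genes were assigned to neither phase, and the lists may not hold every gene that peaks in a phase. E2F7, which pairs with the listed E2F8, was left out and rose 3.21-fold. That all G1/S genes fell therefore holds only for the 7 listed. Also left out were CCND2, which rose, CDK2 and E2F3, which were not called, and RBL1, WEE1 and PKMYT1, which fell. The assignment was made with earlier results of these data known, so these counts are no test of the phases.

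Genes of the same pathway outside the 43 were counted from lists of known function, drawn up with earlier results of these data known. Of 20 S phase targets of E2F, 16 fell and 0 rose (limma; 1 rose at an unadjusted p of 0.05), with a median log2 difference of -0.48. TK1 and TYMS, enzymes of thymidylate supply, fell 2.44-fold and 2.24-fold. Of 20 mitotic targets of FOXM1 and MuvB, 17 fell and 0 rose (limma; also 0 at an unadjusted p of 0.05), with a median of -0.67. The kinesin KIF20A, the WEE1-degrading factor CDCA3 and the kinase AURKA fell 3.00-fold, 2.58-fold and 2.16-fold. Of 26 tested cofactors and turnover factors of CDKs and RB, 8 fell and 3 rose, with a median of -0.16. These are 30.8% and 11.5% of the list, against 21.4% and 30.6% of all genes. SKP2, which targets p27 for degradation, fell 2.57-fold, the mitotic activator CDC20 fell 1.61-fold, and LIN37, another MuvB subunit, rose 2.35-fold.

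Of 32 tested cyclins, CDKs and related genes that are not among the core genes, 16 rose and 6 fell, with a median log2 difference of 0.21. These are 50% and 18.8% of the list, against 30.6% and 21.4% of all genes, so the share of falls was near that of all genes. CDK5, a kinase best known from neurons, fell 2.17-fold, CDK13, a kinase of RNA polymerase II, rose 1.80-fold, and CCNA1, the germline A-type cyclin, fell 1.81-fold. CCNA1 and CCNA2 thus both fell.

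**Figure D5:**
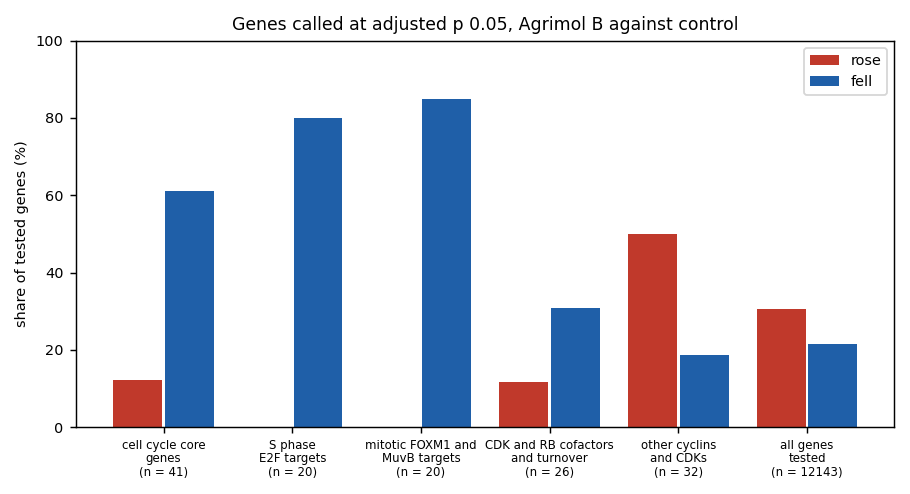
Share of tested genes (y axis, percent, from 0) that rose (red) or fell (blue) with Agrimol B at a limma adjusted p of 0.05, in the cell cycle core genes, in 4 further lists and in all genes. Falls reach 61.0% of the 41 core genes, 80.0% and 85.0% of the S phase and mitotic targets and 18.8% of the other cyclins and CDKs, against 21.4% of all genes.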

How the data were processed

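Per the labels' protocols, libraries of HOS RNA (3 Agrimol B, 3 control) were built with a kit for stranded mRNA sequencing. The authors deposited FPKM values for 16376 genes, with 1 column per library. Per the submitters' processing notes, FastQC, cutadapt, Trimmomatic, HISAT and hg38 were used, with no versions or roles. The sources used here do not name the program behind the FPKM values, its annotation or its filter. Control columns were matched by number, since their 2 letters are those of the samples' descriptions swapped.

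From these values log2(FPKM + 1) was computed, 12143 genes averaging 1 FPKM or more were kept, and limma 3.58.1 in R 4.3.3 (linear model, empirical Bayes with a variance trend, two-sided) was run on them, p-values being adjusted by Benjamini-Hochberg across the 12143 genes and called at 0.05. A log2 difference on this scale understates changes of low genes, so folds are ratios of mean FPKM. Steps were tested on simulated data. Alternatives were a pseudocount of 0.1, no filter or 5 FPKM, median-ratio and quantile scaling, no variance trend, a replicate block, and each library left out. The genes and lists, and the rule for the genes named (all 43, with full values for changes of at least 1.5-fold, the CDKs, D and E cyclins, CDKN1A, CDKN1B, RB1 and genes under the filter, and up to 3 changed genes of each other list), were chosen with earlier results of these data known. The values of 1 gene that this rule names are not reported here. Relative depths came from the commonest ratio between libraries among genes under 0.05 FPKM, over 15 library pairs that fitted to within 0.0016 (log2). Only 4.98% to 10.8% of the 266 to 405 such genes of a pair shared that ratio, so the depths rest on few genes. Coordinates are from RefSeq and GENCODE 29 (GRCh38). Python 3.11.15 with pandas 2.3.3, numpy 2.4.6 and matplotlib 3.10.9 did the rest.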

Additional observations from a re-analysis of the deposited data

How the results depend on the processing

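Of the 30 core genes called, 22 kept their direction and call in each of the 13 alternatives in which they were tested. Among them were both rises of at least 1.5-fold (CCND2 and E2F7). E2F2, with a mean of 4.33 FPKM, did not enter the run with a filter of 5 FPKM and kept its call in the remaining 12. The other 8 called genes lost the call in at least 1 alternative: CDC25B, CDK6, CDKN1A, E2F4, PKMYT1, RB1, RBL2 and TFDP2. The cause was not tested. The number that rose was 5, against 3 with quantile normalization and 2 to 4 without 1 library, and the number that fell was 25, against 28 with quantile normalization and 20 to 25 without 1 library. The median log2 difference of the core genes was -0.31, and -0.37 with median-ratio scaling and with quantile normalization, both of which also lower the median of all genes, from 0.07 to 0.01. Of the S phase E2F targets 0 rose, against 1 with a filter of 5 FPKM and 0 to 1 without 1 library. Directions turned only in genes that were not called. CDKN1C moved from 0.02 to -0.0235 with median-ratio scaling, to -0.0301 with quantile normalization, and to between -0.19 and 0.21 without 1 library. CCND3 lay between -0.38 and 0.0089 without 1 library. Same-numbered libraries of the groups did not deviate together (correlation of deviations from the group means -0.01 to 0.04). Libraries with different numbers gave -0.07 to 0.07. These values cannot show whether same-numbered libraries were handled together. With the replicate block, 23 core genes fell and 4 rose (CDK6, RB1 and RBL2 lost their call), and 3392 of all genes rose and 2384 fell. Absolute depth is unknown, which limits what can be said of CDKN2A, CDKN2B and CDKN1C.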
